A study of Mus musculus with 12 samples.

Results

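Loss of the metabotropic glutamate receptor mGluR5 was examined in mouse striatum as an effect averaged over 2 huntingtin backgrounds. All 6 arrays from mGluR5-/- mice were set against all 6 arrays from mGluR5+/+ mice, with the Htt allele held constant, so the comparison took in every one of the 12 arrays of the study. The effect in each gene was the mean of the effect in Q20 mice and the effect in Q111 mice. Of 19938 genes with a probe set, 16721 were tested, and the other 3217 lay too close to the low end of the arrays. Each gene was read from the probe set with the highest mean.

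The mGluR5-/- groups were HdhQ20/Q20;mGluR5-/- and HdhQ111/Q111;mGluR5-/-, and the mGluR5+/+ groups were HdhQ20/Q20;mGluR5+/+ and HdhQ111/Q111;mGluR5+/+, with 3 arrays each. Q20 and Q111 are knock-in alleles of the mouse huntingtin gene (Hdh, now Htt) with a short or an expanded glutamine repeat, and every mouse was homozygous for one of them, so that none carried an unmodified huntingtin gene. The animals were males 90 days old on a mixed background of 129, CD-1, C57BL/6 and FV. The labels name no Cre line and no cell-restricted promoter, and do not state whether 1 or several animals gave the 3 arrays of each group. The p-values therefore measure the spread between these samples, part of which may be technical.

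mGluR5, encoded by Grm5, is a group I metabotropic glutamate receptor. It couples through Gq proteins to phospholipase C, and so to inositol trisphosphate, release of calcium from internal stores and protein kinase C, and its C-terminal tail binds Homer scaffolds of the postsynaptic density. In the striatum it is abundant in the spiny projection neurons of the direct and indirect pathways and is also found in interneurons and glia.

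RNA was measured on whole-transcript microarrays, and all values are log2 signals normalized by the authors, on which a difference of 1 is a doubling of signal. The array medians lay between 7.05 and 7.16. The interquartile range of an array, a measure of how widely its values spread, was 2.67 to 2.95 on the mGluR5-/- arrays (median 2.77) and 2.56 to 2.93 on the mGluR5+/+ arrays (median 2.76), and the leading axis of a principal component analysis, holding 36.5% of variance, followed it. The tissue label was borne out by the markers of the projection neurons. Ppp1r1b (DARPP-32), the dopamine receptor genes Drd1 and Drd2, the peptide precursors Penk and Tac1, and Rgs9 lay above at least 97.2% and up to 99.9% of tested genes. Of the cortical markers, Tbr1 lay above 10.5% and Slc17a7 above 51.0% of tested genes. The median of 15 markers of cortical projection neurons lay above 48.1%, so these markers do not show the absence of cortical RNA. Ttr, a marker of choroid plexus, ranged from 6.30 to 9.28 on the mGluR5-/- arrays and from 6.37 to 8.54 on the mGluR5+/+ arrays. Because tissue was measured in bulk, fewer cells of a type and less RNA per cell cannot be told apart in any value given here.

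The targeted gene was read first. In mGluR5-/- mice Grm5 (Entrez 108071, chromosome 7) had signals of 11.06, 10.93 and 11.17 on the Q20 allele and 11.14, 11.09 and 10.98 on the Q111 allele. In mGluR5+/+ mice it had 11.95, 12.08 and 11.97 on Q20 and 11.96, 12.01 and 11.85 on Q111. Every mGluR5-/- array lay below every mGluR5+/+ array, with an empty gap of 0.68. Grm5 fell by 0.91 ± 0.07 (SE) log2 units on average, a factor of 1.88 (limma, adjusted p = 5.81e-06), and almost equally on the 2 alleles (-0.94 in Q20 and -0.87 in Q111, interaction adjusted p = 0.9999). The remaining signal in mGluR5-/- mice was high for the array. The probes were not placed against the deletion, so the size of the fall does not measure how much transcript remained.

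Beside Grm5, few genes differed. The average effect was called in 49 of 16721 tested genes (0.293%, limma with Benjamini-Hochberg adjusted p below 0.05), of which 21 were higher (0.126%) and 28 lower (0.167%) in mGluR5-/- mice. With each array centred on its median the split turned to 23 higher and 20 lower. The called genes include 6 predicted genes and small RNA genes that are counted without names. The changes were mostly small: 16 genes changed at least 1.5-fold, 4 at least 2-fold, and the smallest called change was 0.33 log2 units, against a standard deviation of 0.096 for the average change over all tested genes and a median standard error of 0.079. At an unadjusted p below 0.05 there were 890 genes (5.32%). The count was 29 without replicate 1 of the Q20 mGluR5-/- mice and 31 without replicate 3 of the Q20 mGluR5+/+ mice. It was 12 in a model without an interaction term, in which a difference between the alleles counts as error.

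**Figure D1:**
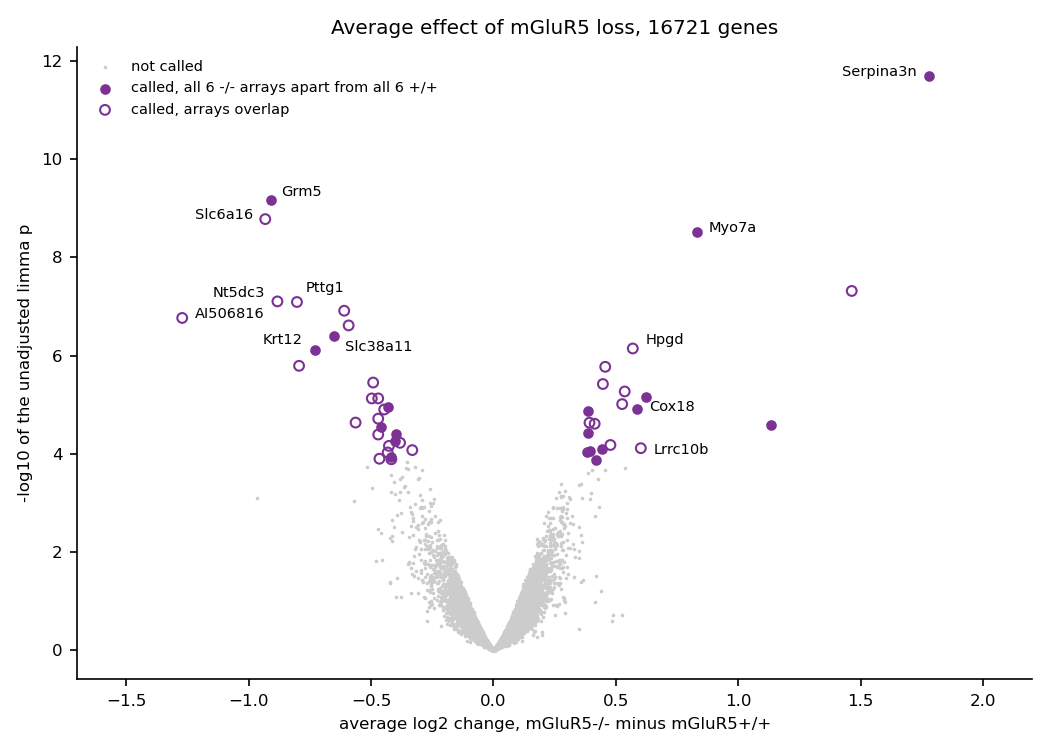
Average log2 change with mGluR5 loss (x axis, mGluR5-/- minus mGluR5+/+) against -log10 of the unadjusted limma p (y axis) for 16721 genes. Filled circles are called genes whose 6 mGluR5-/- arrays lay apart from all 6 mGluR5+/+ arrays (19), open circles the other called genes (30), and Serpina3n stands alone at 1.78; called points without a name include predicted genes.

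The called genes divide by how evenly the effect was shared between the alleles. In 19 of the 49 all 6 mGluR5-/- arrays lay on one side of all 6 mGluR5+/+ arrays, 11 above and 8 below, an arrangement found in 51 of all tested genes (0.305%). In the other 30 the arrays overlapped, and 20 of the 49 had a called interaction, meaning that the effect differed between the alleles beyond the error of limma (interaction adjusted p below 0.05, 73 of all tested genes, 0.437%). Both patterns are described in turn.

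The rises common to both alleles were led by Serpina3n and Myo7a. Serpina3n encodes a secreted serine protease inhibitor known from reactive astrocytes. Its signal was 8.88, 9.18 and 8.78 in Q20 mGluR5-/- mice and 10.58, 10.61 and 10.45 in Q111 mGluR5-/- mice, against 7.77, 7.76 and 7.97 in Q20 mGluR5+/+ mice and 8.11, 8.27 and 7.91 in Q111 mGluR5+/+ mice. No mGluR5-/- array reached down to an mGluR5+/+ array on either allele, and the Q111 mGluR5-/- arrays were the highest of all. The average rise was 1.78 ± 0.09 (SE) log2 units, or 3.44-fold (limma adjusted p = 3.37e-08). It was called on each allele, at 1.11 in Q20 and 2.45 in Q111, and the rise in Q111 mice was the larger (interaction 1.34 ± 0.17, adjusted p = 0.00153). Of 25 tested genes of the reactive astrocyte list Serpina3n was the member called (0.293% of all genes were called). Cd44, a surface receptor of reactive glia, stood at 0.15 ± 0.07 and Psmb8, an immunoproteasome subunit, at 0.16 ± 0.07 without passing, and the list had a median of 0.04 against 0.01 over all genes. None of 15 astrocyte markers was called.

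Myo7a encodes an unconventional myosin known from the hair cells of the inner ear and from the retina. It ranged from 7.67 to 7.79 on the mGluR5-/- arrays (median 7.77) and from 6.70 to 7.07 on the mGluR5+/+ arrays (median 6.95), a clear gap of 0.60. The rise of 0.83 ± 0.07 log2 units (1.78-fold, limma adjusted p = 1.25e-05) was alike on both alleles, at 0.80 in Q20 and 0.86 in Q111. The remaining rises with separated arrays were smaller. Cox18, which inserts a cytochrome oxidase subunit into the inner mitochondrial membrane, averaged 10.30 ± 0.10 in mGluR5-/- and 9.72 ± 0.23 in mGluR5+/+ mice (SD, n = 6 each; 0.58 ± 0.09 SE, limma adjusted p = 0.00834). The gap between the nearest arrays was only 0.03. Ndufc2, a subunit of respiratory complex I, averaged 12.29 ± 0.08 in mGluR5-/- and 11.91 ± 0.10 in mGluR5+/+ mice (0.39 ± 0.07, adjusted p = 0.0187). Me2, the mitochondrial malic enzyme, rose by 0.44 ± 0.08, its neighbour Mro by 0.42 ± 0.08 and Bmp7, a secreted growth factor, by 0.40 ± 0.07. Lyplal1 (0.38 ± 0.07) and the matrix protein Thbs2 (0.39 ± 0.06) rose too and are named after their values were seen. For Thbs2 the rise was 0.71 in Q20 and 0.07 in Q111 mice.

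The falls with separated arrays were led, after Grm5, by Krt12 and Slc38a11. Krt12, a keratin known from the corneal epithelium, ranged from 6.85 to 7.16 on the mGluR5-/- arrays (median 6.95) and from 7.36 to 8.0 on the mGluR5+/+ arrays (median 7.75). Its fall of 0.73 ± 0.09 log2 units (1.66-fold, limma adjusted p = 0.000983) was -0.91 in Q20 mice and -0.54 in Q111 mice, a difference that did not pass (interaction adjusted p = 0.967). Slc38a11, a member of an amino acid transporter family, ranged from 5.53 to 5.85 on the mGluR5-/- arrays (median 5.71) and from 6.21 to 6.51 on the mGluR5+/+ arrays (median 6.31). It fell on both alleles, at -0.63 in Q20 and -0.67 in Q111 (average -0.65 ± 0.08, adjusted p = 0.000616). In both mGluR5-/- groups its mean lay under the 25th percentile of signal (5.69 to 5.94 by array), where a value is hard to tell from background, so this fall has no exact size. All its mGluR5+/+ arrays lay above that percentile, which alone let it pass the filter. The following 5 were named after their values were seen. Pik3r4, the Vps15 subunit of the class III phosphoinositide kinase, averaged 8.66 ± 0.05 in mGluR5-/- and 9.12 ± 0.19 in mGluR5+/+ mice (SD, n = 6 each), and Cdv3 averaged 9.16 ± 0.11 in mGluR5-/- and 9.60 ± 0.07 in mGluR5+/+ mice. Atp2c1, a calcium and manganese pump of the Golgi, averaged 9.76 ± 0.14 in mGluR5-/- and 10.18 ± 0.13 in mGluR5+/+ mice. Ccdc88c, which binds Dishevelled in Wnt signalling, fell by 0.40 ± 0.07, and Metap1d, a mitochondrial methionine aminopeptidase, by 0.40 ± 0.07.

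**Figure D2:**
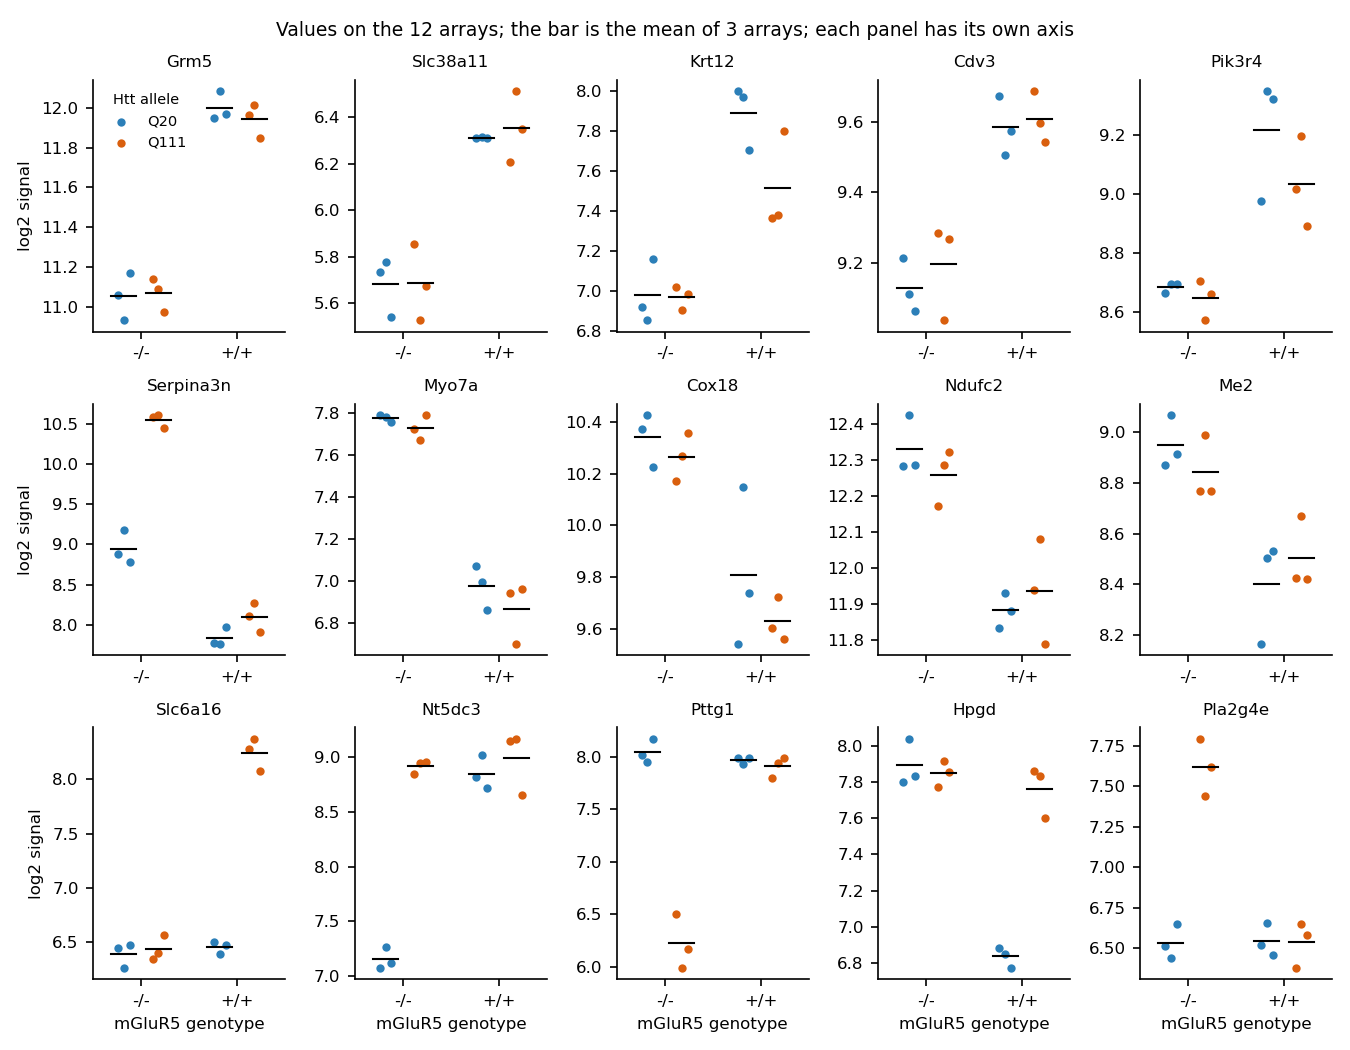
Log2 signal of 15 genes on each of the 12 arrays, mGluR5-/- left of mGluR5+/+, with Q20 arrays in blue and Q111 arrays in orange and a bar at the mean of 3 arrays. In the upper rows every mGluR5-/- array is apart from every mGluR5+/+ array (Grm5 by 0.68, Myo7a by 0.60); in the bottom row a single group of 3 arrays stands away from the other groups.

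The effects were called on both alleles separately, in the same direction, in 4 genes: Grm5, Myo7a, Serpina3n and Slc38a11. Grm5, Myo7a and Serpina3n kept the call under all 27 alternatives run, and Slc38a11 under the 26 in which it was tested, since a stricter filter on low signal left it out. The calls of 27 of the 49 were kept whichever single array was left out, and 22 lost the call without at least 1 array, among them Ndufc2 (7 of 12 arrays), Me2 (11), Mro (10), Atp2c1 (10), Bmp7 (9), Ccdc88c (8), Metap1d (8), Lyplal1 (8) and Pik3r4 (4). Outside the genes with separated arrays, Lrrc10b, Cyb5a, Ptger4 and Insyn2b lost it without 8 of the 12, Arntl2 without 9, Impg1 and Rpe65 without 10 and Sod3 without 6. Aoah lost it without replicate 1 of the Q20 mGluR5-/- mice, Fv1 and Stk10 without replicate 3 of the Q20 mGluR5+/+ mice, and Ppfibp1 without either replicate 1 of the Q20 mGluR5-/- or replicate 1 of the Q111 mGluR5+/+ mice.

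The upstream sequences of the 4 largest of these changes beside Grm5 are shown because their arrays separated completely. Each is the 250 bases before the annotated start, written 5′ to 3′ on the gene's strand, from RefSeq on GRCm38.p6. Serpina3n lies at chr12:104406458-104406707 (plus strand), Myo7a at chr7:98119494-98119743 (minus; 1 of 2 starts in the table), Krt12 at chr11:99422260-99422509 (minus) and Slc38a11 at chr2:65364027-65364276 (minus). Capitals mark TATAAA.
Serpina3n: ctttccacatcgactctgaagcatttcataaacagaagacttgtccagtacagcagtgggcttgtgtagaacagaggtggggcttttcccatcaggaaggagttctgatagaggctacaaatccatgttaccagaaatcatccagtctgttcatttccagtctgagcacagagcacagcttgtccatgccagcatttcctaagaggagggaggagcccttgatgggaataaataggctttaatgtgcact
Myo7a: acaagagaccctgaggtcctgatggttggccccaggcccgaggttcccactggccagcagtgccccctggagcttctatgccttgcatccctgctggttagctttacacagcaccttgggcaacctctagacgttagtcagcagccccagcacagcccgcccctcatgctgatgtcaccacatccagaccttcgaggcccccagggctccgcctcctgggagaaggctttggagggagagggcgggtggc
Krt12: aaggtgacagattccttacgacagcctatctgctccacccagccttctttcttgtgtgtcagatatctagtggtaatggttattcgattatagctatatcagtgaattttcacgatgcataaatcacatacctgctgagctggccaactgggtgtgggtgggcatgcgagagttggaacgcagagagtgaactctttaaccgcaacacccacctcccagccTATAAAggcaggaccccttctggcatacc
Slc38a11: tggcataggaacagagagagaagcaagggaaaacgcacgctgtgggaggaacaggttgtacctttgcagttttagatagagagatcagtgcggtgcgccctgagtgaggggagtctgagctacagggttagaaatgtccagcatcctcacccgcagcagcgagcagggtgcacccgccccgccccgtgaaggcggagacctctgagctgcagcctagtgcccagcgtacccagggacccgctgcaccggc
Both strands were searched for the cyclic AMP response element TGACGTCA, the AP-1 site TGANTCA, the STAT site TTCNNNGAA and the TATA box TATAAA. In the 4 windows there was 1 match, the TATAAA of Krt12, 29 bases before the start. A window was found for 16 of the genes that rose and 19 of those that fell. None of these 35 held the first 3 motifs, which occurred in 2.42%, 5.04% and 6.19% of the windows of tested genes. TATAAA occurred in 1 of 16 (6.25%, Thbs2) and 1 of 19 (5.26%, Krt12), against 8.09% of tested genes and 13% of all 27025 windows in the table. A match describes the letters and no more, and a missing match says only that these letters are not in this window.

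Most of the remaining calls came from 1 allele. Of the 20 called genes with a called interaction, 7 were called in Q20 mice alone, 12 in Q111 mice alone and 1, Serpina3n, in both. In these genes the average blends unequal changes, so the values on each background are given.

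In Q111 mice, Slc6a16, an orphan member of the neurotransmitter transporter family, was 6.35, 6.40 and 6.57 in mGluR5-/- and 8.28, 8.37 and 8.08 in mGluR5+/+ mice. In Q20 mice it was 6.45, 6.27 and 6.48 in mGluR5-/- and 6.51, 6.39 and 6.48 in mGluR5+/+ mice. The Q111 mGluR5+/+ group thus stood above the other 3 groups, which overlapped, and the average of -0.93 ± 0.07 was -0.06 in Q20 and -1.80 in Q111. Pttg1 (securin, an inhibitor of sister chromatid separation) was 6.5, 5.99 and 6.18 in Q111 mGluR5-/- mice against 7.80, 7.94 and 7.98 in Q111 mGluR5+/+ mice, and 7.93 to 8.17 on all 6 Q20 arrays. Here it was the Q111 mGluR5-/- group that stood apart (average -0.80 ± 0.08). Acvrl1, an endothelial receptor for bone morphogenetic proteins, was likewise low in the mice with both mutations, at 7.28, 7.24 and 7.46 in Q111 mGluR5-/- against 8.47, 8.38 and 8.59 in Q111 mGluR5+/+ mice. It fell by 0.61 ± 0.06 on average (limma adjusted p = 0.000256). It is the member called among 20 markers of endothelial and mural cells (0.293% of all genes were called). Of these markers 14 had positive values, against 9539 of 16721 genes in all. An unadjusted limma p below 0.05 was found for 4 of the 20 (20%, against 5.32% of all genes).

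Further falls carried by Q111 mice were in Abhd14a (-0.59 ± 0.07 on average), the retroviral restriction factor Fv1 (-0.47 ± 0.08), the meiotic gene Mcmdc2 (-0.49 ± 0.07), AI506816, and Impg1 (-0.47 ± 0.09), a proteoglycan of the photoreceptor matrix named after its values were seen. The means of Mcmdc2 and Impg1 lay below the 25th percentile of signal in Q111 mGluR5-/- mice, and that of AI506816 in 3 of the 4 groups, so these 3 falls have no exact size. AI506816 passed the filter on low signal only through its Q111 mGluR5+/+ arrays (6.10, 6.80 and 6.80). Its call therefore depends on the 1 group where it was high. Pla2g4e rose in Q111 mice, with 7.79, 7.44 and 7.62 in mGluR5-/- against 6.38, 6.65 and 6.58 in mGluR5+/+ mice, while all Q20 arrays lay between 6.44 and 6.65. Trappc2l, a subunit of the vesicle-tethering TRAPP complex, rose by 0.92 in Q111 and stood at 0.13 in Q20 mice.

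In Q20 mice, Nt5dc3 was 7.08, 7.27 and 7.12 in mGluR5-/- against 8.82, 9.02 and 8.71 in mGluR5+/+ mice. Its Q111 arrays lay between 8.65 and 9.17 whichever the genotype, so the average of -0.88 ± 0.09 came from -1.69 in Q20 and -0.07 in Q111. Idua, a lysosomal enzyme that degrades glycosaminoglycans, fell by 0.98 in Q20 mice and stood at -0.01 in Q111 mice. Hpgd, which inactivates prostaglandins, was 7.80, 8.04 and 7.83 in Q20 mGluR5-/- against 6.89, 6.85 and 6.78 in Q20 mGluR5+/+ mice. On Q111 its mGluR5-/- arrays (7.77 to 7.92) overlapped the mGluR5+/+ arrays (7.60 to 7.86). Hhipl1 rose by 0.78 in Q20 and stood at 0.13 in Q111 mice, and Arntl2, a clock transcription factor named after its values were seen, fell by 0.70 in Q20 and stood at 0.03 in Q111 mice.

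A group of 12 called genes had overlapping arrays without a called interaction. They included Gabra2, a subunit of synaptic GABA-A receptors (0.45 ± 0.06 on average, 0.18 in Q20 and 0.72 in Q111), Cyb5a, a membrane-bound electron carrier (0.48 ± 0.09), Lrrc10b (0.60 ± 0.11), the kinase Stk10 (0.41 ± 0.07) and the liprin Ppfibp1 (0.39 ± 0.06). They also included Sod3, the extracellular superoxide dismutase (-0.47 ± 0.08), Fam163a (-0.47 ± 0.07), Ptger4, a prostaglandin E receptor (-0.38 ± 0.07), and Aoah, which detoxifies bacterial lipopolysaccharide and was near background in 3 of 4 groups (-0.56 ± 0.09). Insyn2b, an inhibitory synaptic factor (-0.43 ± 0.08), and Rpe65, a retinoid isomerase (-0.42 ± 0.08), are named after their values were seen. Rpe65 was near background in Q20 mGluR5-/- mice. Of these, Sod3 came closest to separation, with 6.14 to 6.67 on the mGluR5-/- and 6.67 to 7.04 on the mGluR5+/+ arrays.

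**Figure D3:**
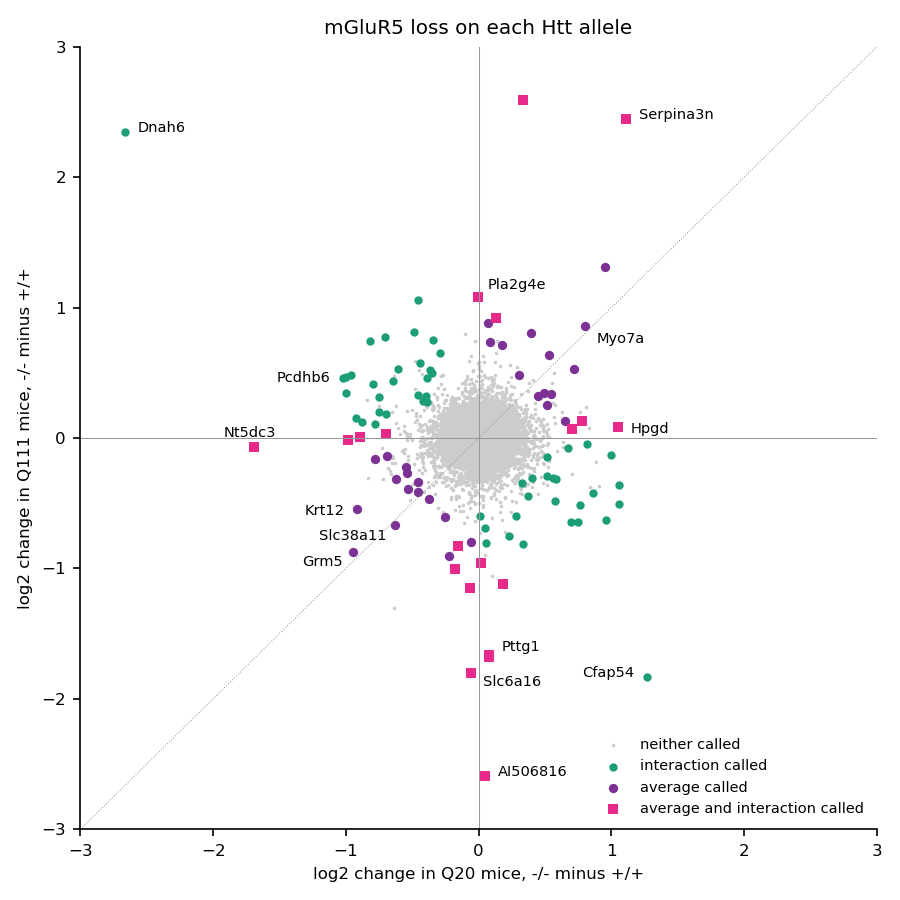
Log2 change with mGluR5 loss in Q20 mice (x axis) against the change in Q111 mice (y axis), both mGluR5-/- minus mGluR5+/+, for all tested genes, with the dotted line marking equal change. Grm5, Slc38a11 and Myo7a lie by that line, genes with both calls such as Slc6a16 (-0.06 and -1.80) and Nt5dc3 (-1.69 and -0.07) lie along an axis, and Dnah6 and Cfap54 lie in opposite corners.

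Averaging also removed genes from view. The interaction was called in 53 genes without a called average. Loss of mGluR5 was called in 50 genes in Q20 mice (0.299%) and in 46 in Q111 mice (0.275%), and 7 were called in both, which is 14% of the Q20 calls and 15.2% of the Q111 calls. Of these 7, 3 moved in opposite directions and are named after their values were seen. Dnah6, an axonemal dynein heavy chain, was 6.00, 6.09 and 5.96 in Q20 mGluR5-/- against 8.45, 8.72 and 8.87 in Q20 mGluR5+/+ mice, and 8.78, 8.70 and 8.35 in Q111 mGluR5-/- against 6.07, 6.42 and 6.30 in Q111 mGluR5+/+ mice. Its average of -0.16 ± 0.09 hid differences between the mGluR5 genotypes of -2.66 in Q20 and 2.35 in Q111 mice. Cfap54, another gene of motile cilia, moved the other way, at 1.27 in Q20 and -1.83 in Q111, and Abhd10 stood at 0.70 and -0.65. Over all tested genes the effects on the 2 alleles, which were measured on separate arrays, had a Pearson correlation of -0.0156, given as a description since genes are not independent.

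Among the protocadherin beta genes, clustered adhesion genes of neurons, 7 of 22 had a called interaction (against 0.437% of all genes) and none a called average effect. In these 7 (Pcdhb2, Pcdhb3, Pcdhb4, Pcdhb6, Pcdhb7, Pcdhb8 and Pcdhb11) the value was negative in Q20 and positive in Q111 mice. Pcdhb3 and Pcdhb6 were called in Q20 mice, and none of the 7 was called in Q111 mice. Pcdhb6 was 8.27, 8.33 and 8.21 in Q20 mGluR5-/- against 8.86, 9.54 and 9.47 in Q20 mGluR5+/+ mice, and 8.83, 9.07 and 8.68 in Q111 mGluR5-/- against 8.39, 8.68 and 8.14 in Q111 mGluR5+/+ mice. These genes are close copies of each other, so probes may be shared among them. The list was chosen with earlier results of these data known, so the count of 7 of 22 is a description.

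No gene of the receptor's own pathway passed the test. None of 40 tested genes for group I receptors, Homer and Shank scaffolds and downstream enzymes, Grm5 left out, was called, and the median was 0.02 against 0.01 over all genes. Prkca, a protein kinase C, had the smallest unadjusted p and stood at -0.30 ± 0.09 (limma adjusted p = 0.441), while the scaffold Shank3 stood at 0.11 ± 0.06 and Mgll, which degrades an endocannabinoid, at 0.12 ± 0.07. Of 6 other metabotropic receptors, Grm7, a presynaptic receptor, came nearest, at -0.31 ± 0.07 (adjusted p = 0.0835), with 9.44 to 10.04 on the mGluR5-/- and 9.87 to 10.24 on the mGluR5+/+ arrays. None of 25 ionotropic receptor and auxiliary subunit genes was called, nor any of 9 genes of glutamate uptake and release. The AMPA receptor gene Gria2 stood at -0.14 ± 0.08 and the NMDA receptor gene Grin2b at -0.13 ± 0.07. None of 34 projection neuron identity genes was called (median 0.01), nor any of 10 direct-pathway or 9 indirect-pathway markers, of which Eya1 stood at 0.29 ± 0.08 (adjusted p = 0.228). Of 16 GABA genes Gabra2 was called (0.293% of all genes were called), and Gabra5 stood at 0.42 ± 0.11 (limma adjusted p = 0.243).

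The immediate early genes, transcribed within minutes of neuronal activity, lay low as a list although no member passed. Of 26 tested, 0 were called by limma, 7 had an unadjusted p below 0.05 (26.9%, against 5.32% of all genes), and 21 were negative, against 7182 of 16721 genes in all. The median was -0.12, against 0.01. Npas4, an activity-dependent transcription factor, had 7.35 to 7.97 on the mGluR5-/- arrays and 7.62 to 8.14 on the mGluR5+/+ arrays (-0.29 ± 0.11, limma adjusted p = 0.661). Junb stood at -0.20 ± 0.08 and the phosphatase Dusp5 at -0.20 ± 0.07. Averaged over the list, the mGluR5-/- arrays lay between 7.91 and 8.11 and the mGluR5+/+ arrays between 7.93 and 8.30, so the genotypes overlapped.

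Subunits of oxidative phosphorylation lay slightly high. Of 68 tested, 62 were positive, against 9539 of 16721 in all, and the median was 0.10. Ndufc2 was the member called (0.293% of all genes were called), and 8 had an unadjusted p below 0.05 (11.8%, against 5.32% of all genes). Atp5g1, a subunit of the ATP synthase ring, averaged 0.29 ± 0.07 higher (limma adjusted p = 0.127) and Cox6c, a cytochrome oxidase subunit, 0.18 ± 0.06 (adjusted p = 0.431). Averaged over the list, the mGluR5-/- arrays lay between 10.06 and 10.32 and the mGluR5+/+ arrays between 9.97 and 10.20. Replicate 2 of the Q20 mGluR5-/- mice was the highest of all and also had the widest interquartile range. Without it the median was 0.06, and without replicate 3 of the Q111 mGluR5+/+ mice, the lowest array for this list, it was 0.07.

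Enzymes and receptors of the eicosanoid pathway, which turns membrane arachidonic acid into prostaglandins and leukotrienes, held 3 called genes of 35 tested, against 0.293% of all genes. They were the phospholipase Pla2g4e and the prostaglandin-inactivating Hpgd, both higher, and the receptor Ptger4, lower. The list was drawn up with such calls known, so its count is a description. The cyclooxygenase Ptgs2 stood at 0.15 and was not called, and the list median was 0.03.

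Other lists held no called gene. None of 21 synaptic vesicle genes was called, nor of 33 chaperones, 25 interferon response and MHC class I genes, 44 cilium genes, 34 neuropeptide genes or 40 potassium channels. Nor was any of 20 genes of cholesterol synthesis (17 positive, against 9539 of 16721 genes in all, median 0.06). The nearest were H2-Q2, an MHC class I gene (0.36 ± 0.08, limma adjusted p = 0.0995), Ifit1, an interferon-induced gene (0.31 ± 0.09, adjusted p = 0.28), and the stress-response factor Atf4 (0.27 ± 0.08, adjusted p = 0.375). Markers of other cells were likewise not called beside Acvrl1: oligodendrocytes (21 tested), astrocytes (15), microglia (19), ependymal cells (11), choroid plexus (9), striatal interneurons (19), blood (5), cortical projection neurons (15) and thalamus, hypothalamus and septum (18). Among the microglial markers 14 were positive and 5 were negative, against 9539 of 16721 genes positive in all. An unadjusted limma p below 0.05 was found for 4 of the 19 (21.1%, against 5.32% of all genes). Fcrls, a microglial surface protein, stood farthest from 0, at -0.48 ± 0.18 (limma adjusted p = 0.669), with 5.89 to 7.50 on the mGluR5-/- and 6.81 to 7.60 on the mGluR5+/+ arrays. Siglech, a microglial lectin, stood at 0.28 ± 0.07 (adjusted p = 0.149). The mean over the microglial list was 8.11 to 8.44 on the mGluR5-/- and 8.08 to 8.26 on the mGluR5+/+ arrays.

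**Figure D4:**
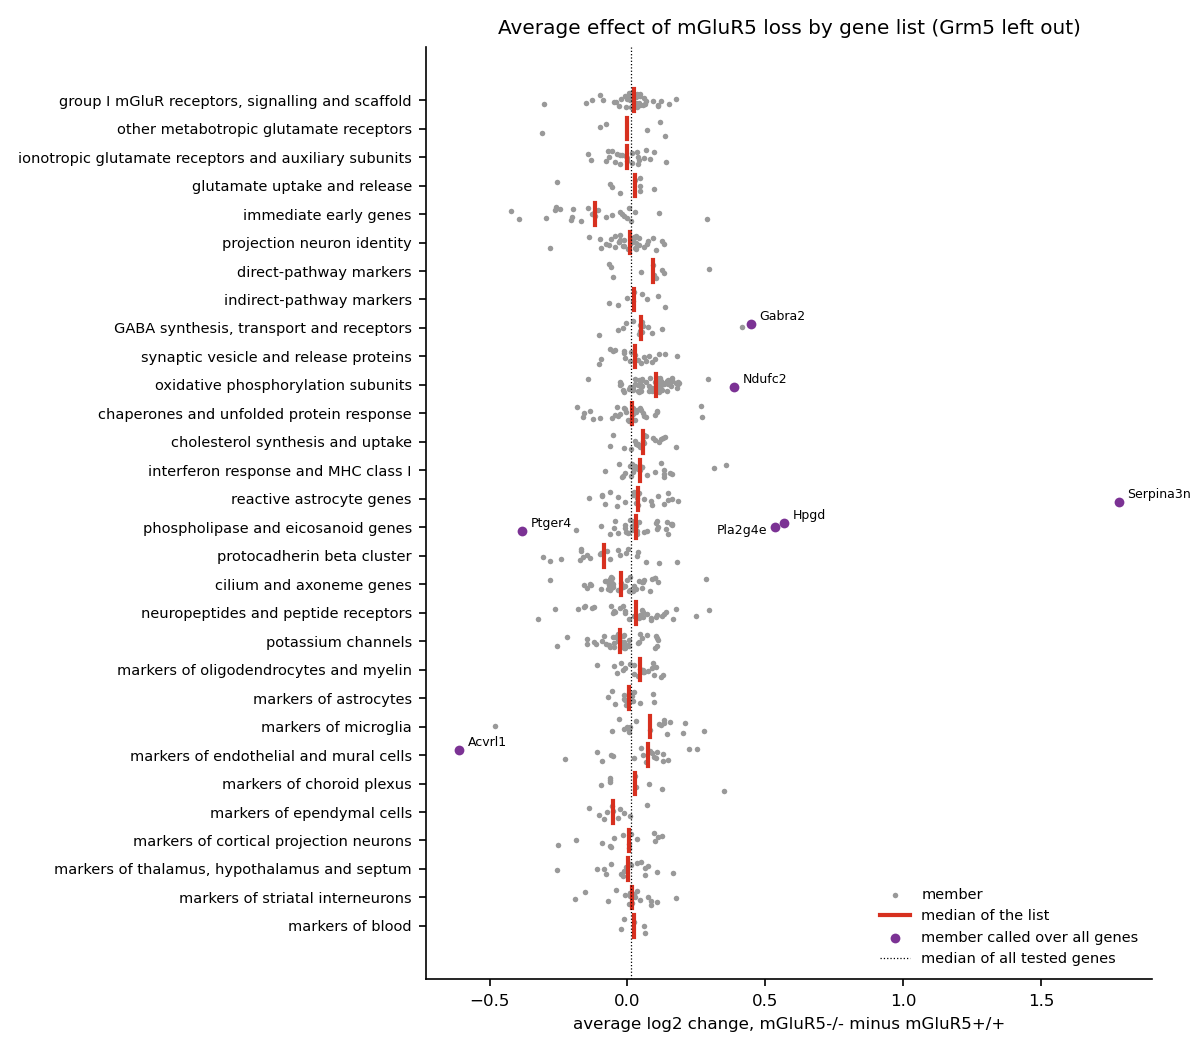
Average log2 change (x axis, mGluR5-/- minus mGluR5+/+) of each tested member of 30 gene lists (grey points), with the list median (red bar), called members in purple and the median of all tested genes dotted. The immediate early genes lie left of that line at a median of -0.12 and the oxidative phosphorylation subunits right of it at 0.10, and called members are single genes such as Serpina3n.

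Genes close to a targeted locus are inherited together with it, so the neighbours of Grm5 on chromosome 7 were examined in gene order. Of the 100 tested genes on each side, 2 of 200 were called (1%), against 0.293% of all genes. These were Ndufc2, at 30 genes from Grm5, and Myo7a, at 38 genes, both on the same side. None of the 25 genes on each side was called. Ctsc and Folh1, the adjacent tested genes, stood at 0.05 ± 0.09 and 0.02 ± 0.10. Within 200 genes on each side 3 of 400 were called (0.75%). Elsewhere, called genes stood next to each other in 3 places: Me2 and Mro on chromosome 18, both higher, Atp2c1 and Pik3r4 on chromosome 9, both lower, and Arntl2 and Ppfibp1 on chromosome 6, which moved in opposite directions. Cdv3, also lower, lay 12 genes from Atp2c1, and Abhd14a, lower too, lay 14 genes from Pik3r4. On chromosome 11 Insyn2b lay 14 genes from Pttg1 and 15 from Stk10. On chromosome 5 Gabra2 lay 7 genes from a called predicted gene. On the mixed background, alleles of the parental strains and the effect of mGluR5 loss cannot be told apart for any of these genes. The same holds for the genes with a called interaction, such as Dnah6, Cfap54, Abhd10 and the protocadherin beta genes.

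**Figure D5:**
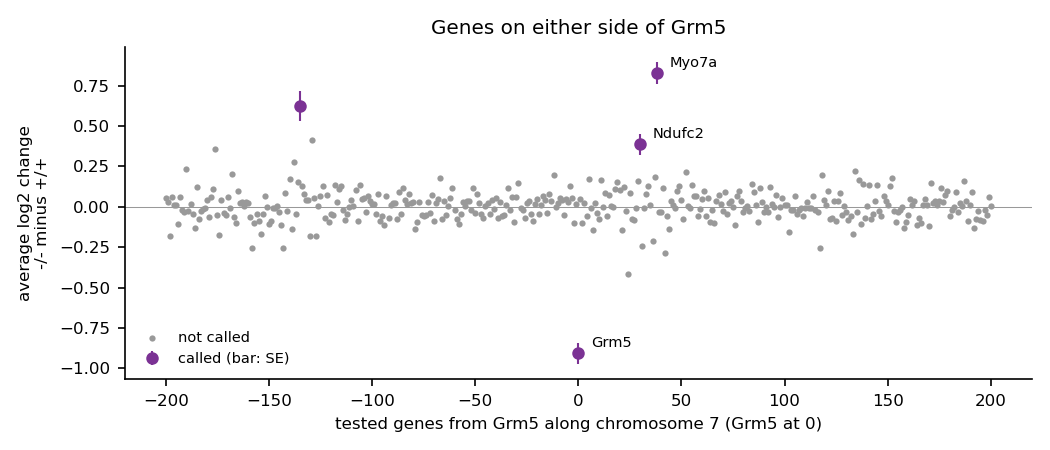
Average log2 change (y axis, mGluR5-/- minus mGluR5+/+) of the tested genes on chromosome 7 by their place in gene order from Grm5 (x axis, in genes), with called genes in purple and their SE as bars. Ndufc2 (0.39) and Myo7a (0.83) are the called genes within 100 places of Grm5, and the unnamed purple point is a predicted gene.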

How the data were processed

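The authors deposited log2 signals from RMA and Partek, per the submitters' processing notes (version 6.5 of Partek Genomics Suite in the series text). RMA corrects background, equalizes arrays by quantiles and summarizes each probe set. Of 35556 probe sets, platform annotation gave 1 symbol to 21789, several to 1621 and none to 12146. Each gene took its set with the highest mean and was tested if above the array's 25th percentile on at least 3 arrays. limma 3.58.1 in R 4.3.3 fitted 1 mean per group over 12 arrays (8 residual degrees of freedom, prior 6.88), and the average of both allele-specific contrasts was tested two-sided with Benjamini-Hochberg adjustment over 16721 genes. Errors are limma standard errors unless marked SD. On simulated data with 200 of 16721 genes changed alike on both alleles, 89.5% were recovered at 1.5-fold with 13 false calls and 99.5% at 2-fold with 13. For an interaction the alleles were moved in opposite directions, so that their effects differed by the stated fold in all. Of these, 14% (4 false) and 77% (6 false) were recovered. Simulated noise was drawn independently for each gene and array, whereas 1 axis held 36.5% of the variance in the data. Precision is limited by the number of arrays.

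The comparison, its genes and the gene lists were chosen with earlier results of these data known. Names were given to Grm5, to the 15 largest rises, 15 largest falls and 10 smallest adjusted p-values among called genes, to called members and up to 3 members of smallest unadjusted p of each list, and to called neighbours of Grm5. Predicted genes, small RNA genes and olfactory or vomeronasal receptors were counted, not named. Gene order and sequences came from RefSeq on GRCm38.p6, which did not match 91 named sets. Alternatives changed the model, the moderation, the scaling, the filter, the probe set rule, the thresholds and the arrays, and list medians under them were added after the data were seen. Plots used matplotlib 3.10.9 in Python 3.11.15.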

Additional observations from a re-analysis of the deposited data

Results flagged for a closer look

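In 17 named genes with a called average the change differed between the alleles by limma's interaction test (adjusted p below 0.05). Given as the change in Q111 mice minus the change in Q20 mice, in log2 units, the difference was -2.64 for AI506816, -1.76 for Pttg1, -1.74 for Slc6a16, -1.30 for Impg1 and -1.08 for Acvrl1. It was -0.981 for Fv1, -0.968 for Hpgd, -0.828 for Abhd14a, -0.679 for Mcmdc2, -0.648 for Hhipl1 and -0.638 for Thbs2. The means of AI506816, Impg1 and Mcmdc2 lay below the 25th percentile of signal in Q111 mGluR5-/- mice, and that of AI506816 also in both Q20 groups, so these 3 differences have no exact size. AI506816 passed the filter on low signal only through the Q111 mGluR5+/+ arrays, where it was high. The difference was 1.62 for Nt5dc3, 1.34 for Serpina3n, 1.09 for Pla2g4e, 0.970 for Idua, 0.786 for Trappc2l and 0.730 for Arntl2. The adjusted p ran from 2.31e-05 for Slc6a16 to 0.0473 for Trappc2l.

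In 7 of 86 sets of 6 arrays, 1 array lay far from the rest, its gap to the nearest taking more of the range than Dixon's 95% limit allows. For 6 values from 1 normal distribution, chance passes that limit in about 1 of 20 sets. Each set here pooled 3 Q20 and 3 Q111 arrays of a called gene, so that rate need not apply. Among the mGluR5-/- arrays these were the lowest for Ccdc88c (0.711 of the range, replicate 2 of the Q20 mice) and the lowest for Pik3r4 (0.664, replicate 2 of the Q111 mice). Among the mGluR5+/+ arrays they were the highest for Cox18 (0.674, replicate 2 of the Q20 mice) and the lowest for Lyplal1 (0.641, Q20 replicate 1), Ptger4 (0.768, Q20 replicate 3), Pttg1 (0.679, Q111 replicate 1) and Thbs2 (0.645, Q20 replicate 2). The mGluR5+/+ array of Cox18 read 10.15, where the next highest read 9.74.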

How the results depend on the processing

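The fall of Grm5 was called under every alternative run, at -0.88 to -0.94 log2 units (limma adjusted p 3.45e-08 to 0.0011). None of the 49 called genes changed direction under any alternative in which it was tested. The direction of single named genes without a call was not followed. The 49 genes of the average effect became 12 without an interaction term, 23 without moderation of the variances, 17 by the thresholds of the series description (unadjusted p and 1.5-fold) and 16 with 1.5-fold added to the adjusted p. They became 376 with array weights, 170 with the interquartile range as a covariate, 30 without the 2 arrays at the extremes of the first principal component, and 29 to 60 with 1 array left out. The weighted and the covariate fits kept all 49. Of the 49, 12 were kept without an interaction term and 19 without moderation, where Krt12 and Cox18 were among those lost. The thresholds of the series description kept 16. The 73 genes of the interaction became 19 without moderation, 165 by the thresholds of the series description, 326 with array weights, 153 with the covariate, 33 without those 2 arrays, and 34 to 69 with 1 array left out. The causes of these shifts were not tested. The 2 arrays at the extremes of the first principal component were replicates 2 and 3 of the Q111 mGluR5+/+ mice (19.66 and -21.84). Without them this group kept 1 array, so the change in Q111 mice and the interaction rested on 1 mGluR5+/+ array. No conclusion is drawn from the counts of that fit. An intensity trend, median centring, quantile normalization, both filters and both probe set rules gave 43 to 62 genes for the average effect and 57 to 82 for the interaction. With a replicate block, that is the replicate number as a term, 79 genes were called, among them all 49, and 107 for the interaction. The main fit did not take the numbers to pair the samples, and the labels give only replicate numbers. After each gene's group mean was subtracted, same-numbered arrays of different groups correlated at -0.144 to 0.567 (median 0.28). The median was -0.08 for differently numbered arrays. The values left within a group cancel each other, so a higher correlation for same numbers lowers that for different numbers, and the medians are not independent. The correlation was above 0.1 in 11 of 18 same-numbered pairs, and 8 of 12 arrays correlated best with their own number. What the numbers stand for was not tested. The median of the immediate early genes ran from -0.15 to -0.08 over the alternatives and that of the oxidative phosphorylation subunits from 0.06 to 0.13. Differences between the alleles are the less precise result by design, since the interaction has a larger standard error than the average (for Dnah6 0.19 against 0.09).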
